A study of Mus musculus with 28 samples.

Results

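NRF2, the product of Nfe2l2, and genes of the antioxidant response were followed in the liver and kidney of mice given nicotinamide mononucleotide (NMN), a precursor of NAD+, by gavage. The 10 genes were Nfe2l2, Nqo1, Gclc, Gclm, Hmox1, Txnrd1, Srxn1, Slc7a11, Gpx1 and Gpx3. They were chosen as a list of NRF2 and antioxidant genes and matched by Ensembl identifier to symbols, and they are 10 of the 54446 genes counted in each library. Polyadenylated RNA was sequenced from male mice aged 8 weeks after 7 days of gavage, in 28 libraries. The sample labels give the strain as C57BL/6, and the methods of the study give it as C57BL6J. At 1340 mg/kg/d the mice received 1 gavage a day of NMN or of water, with 4 NMN and 4 water libraries in each organ. At 2680 mg/kg/d they received 2 gavages a day, with 3 NMN and 3 water libraries in each organ. The water mice of a schedule took the same number of gavages of water, and no genetic change was named for any group. The study asked whether high oral doses of NMN harm these organs.

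NRF2 is a transcription factor that the adaptor KEAP1 marks for degradation in resting cells. Electrophiles and oxidants modify KEAP1, and NRF2 then enters the nucleus, pairs with a small MAF protein and binds antioxidant response elements in front of genes for glutathione synthesis, quinone reduction, thioredoxin recycling and drug conjugation. In liver and kidney this response is known for its part in handling drugs and reactive metabolites. BACH1 competes for the same elements and is best known for holding Hmox1 down.

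The core of the antioxidant response element can be written TGACNNNGC, and TGAGNNNGC is a close form of it. In the 250 bases before the transcription start, searched on both strands, the former was found in 10.2% and the latter in 14.4% of 32851 promoter windows of the RefSeq annotation on GRCm38.p6. The windows of 8 members were matched, and 5 of these members, Nfe2l2, Gclm, Srxn1, Slc7a11 and Txnrd1, held one of the 2 forms. The 8 members have 10 windows, since Txnrd1 has 3, and 5 of the 10 held a match. Either form was found in 23% of all windows. The windows of Srxn1 and Nqo1 are shown because both genes are widely used readouts of NRF2 and their windows differed in these matches. The Srxn1 window lies at chr2:152105274-152105523 on the plus strand and the Nqo1 window at chr8:107403206-107403455 on the minus strand. Capitals mark the matches.
Srxn1: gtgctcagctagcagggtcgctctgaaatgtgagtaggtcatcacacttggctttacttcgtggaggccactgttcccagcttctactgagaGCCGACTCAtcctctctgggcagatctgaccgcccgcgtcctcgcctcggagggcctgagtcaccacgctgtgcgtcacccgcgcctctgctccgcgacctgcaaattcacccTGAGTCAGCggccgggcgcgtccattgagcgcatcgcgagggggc
Nqo1: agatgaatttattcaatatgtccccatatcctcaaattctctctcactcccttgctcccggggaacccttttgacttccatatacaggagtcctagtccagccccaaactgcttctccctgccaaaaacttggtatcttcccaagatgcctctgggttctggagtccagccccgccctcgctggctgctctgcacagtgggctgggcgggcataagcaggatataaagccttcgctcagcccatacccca
In Srxn1 the match TGAGTCAGC lies 45 to 37 bases before the start, and the match GCCGACTCA, which reads TGAGTCGGC on the other strand, lies 158 to 150 bases before it. TGAGTCAGC was found in 0.347% of all windows. The Nqo1 window holds neither form, which says only that these letters are absent from this window. A match is a description of the sequence and not a measured binding site.

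Each library held between 12688324 and 33872983 reads counted on genes. In the kidney the 4 NMN libraries of the 1340 mg/kg/d schedule (13174264 to 14006288 reads) were all smaller than the water libraries (15354270 to 15696435), and the 3 NMN libraries of the 2680 mg/kg/d schedule (22922994 to 33872983) were all larger than theirs (16358886 to 18983689). The organs matched their labels: 8 hepatocyte markers summed to 97201 to 173355 CPM (counts scaled to a common library total) in the liver libraries, and 8 kidney tubule markers to 22695 to 41297 CPM in the kidney libraries. The schedules also differed in water and NMN mice alike. Mitochondrial genes took 8.92% to 10.6% of the reads in the kidney at 1340 mg/kg/d and 19.8% to 21.6% at 2680 mg/kg/d, so a difference between schedules cannot be told apart from a difference between sets of libraries. Liver NMN replicate 4 of the 1340 mg/kg/d schedule stood apart, with 12.8% of its reads in no counted feature against 4.91% to 7.44% in the other 7 liver libraries of that schedule. This class of the counting is not limited to reads between genes. Liver NMN replicate 1 of the 2680 mg/kg/d schedule also stood apart, through markers of kidney tubules that are described with Gpx3. Some values below are also given without these libraries.

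CPM are scaled by the trimmed mean of M values (TMM) within the libraries of an organ and schedule. Differences are log2 fold changes from edgeR's quasi-likelihood test, and a gene was called when its p, adjusted by the Benjamini-Hochberg method over all genes tested, was under 0.05. In bulk tissue, fewer cells of a type and less RNA per cell cannot be told apart. No member was called in any of the 4 comparisons of NMN with water, with 9 of 10 members tested in each. At an unadjusted p under 0.05, 1 member was higher with NMN in the liver (3.52% of all genes tested were) and 1 in the kidney (4.34% were) at 1340 mg/kg/d. At 2680 mg/kg/d, 4 were higher in the liver (12.3% of all genes were), and in the kidney 5 were higher (5.23% were) and 1 was lower (5.84% were). In the liver these counts were 2 at 1340 mg/kg/d without NMN replicate 4 and 3 at 2680 mg/kg/d without NMN replicate 1. The shares of all genes are those of the full fits, and no share is given here for the reduced fits. DESeq2 called 0, 0, 0 and 3 members in the liver at 1340 and 2680 mg/kg/d and the kidney at 1340 and 2680 mg/kg/d. Over all genes it called 74 of 22725, 1450 of 21070, 159 of 26479 and 236 of 26920, in the same order. The plots of CPM by library and of fold changes show these values.

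**Figure D1:**
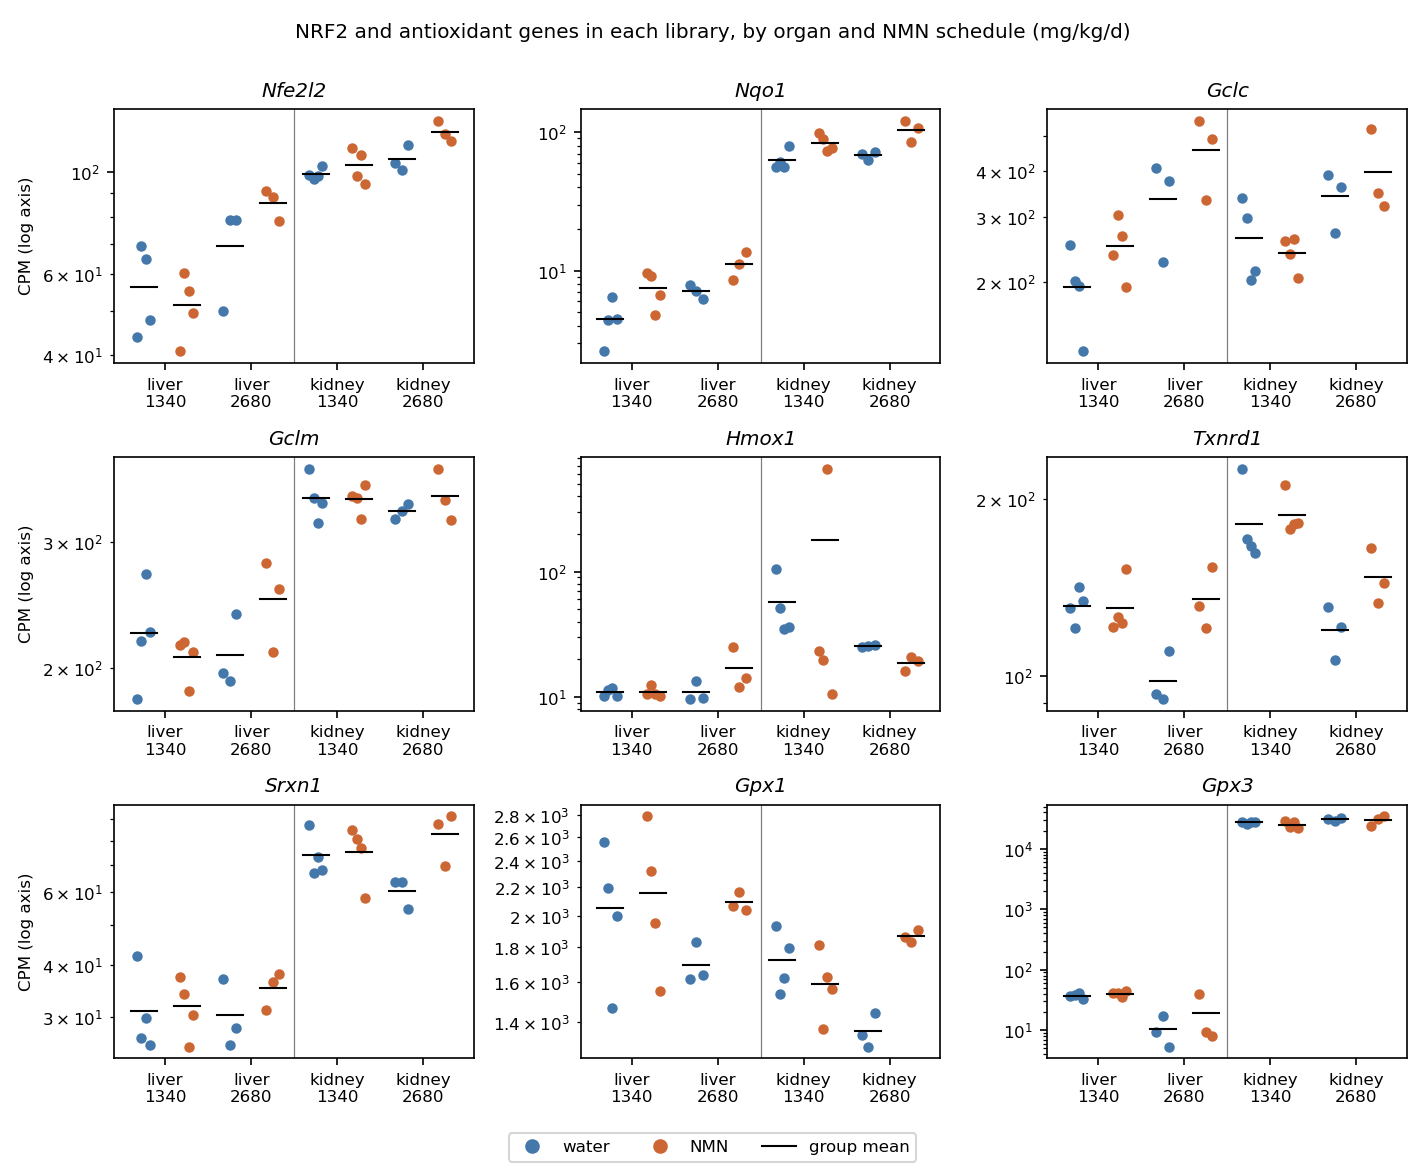
CPM (log axis) of the 9 members tested, one point per library, by organ and schedule in mg/kg/d, with water in blue and NMN in orange and a line at each group mean. Hmox1 in kidney NMN replicate 3 of the 1340 mg/kg/d schedule lies at 664.4 CPM, and Gpx3 in the liver lies far below the kidney.

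**Figure D2:**
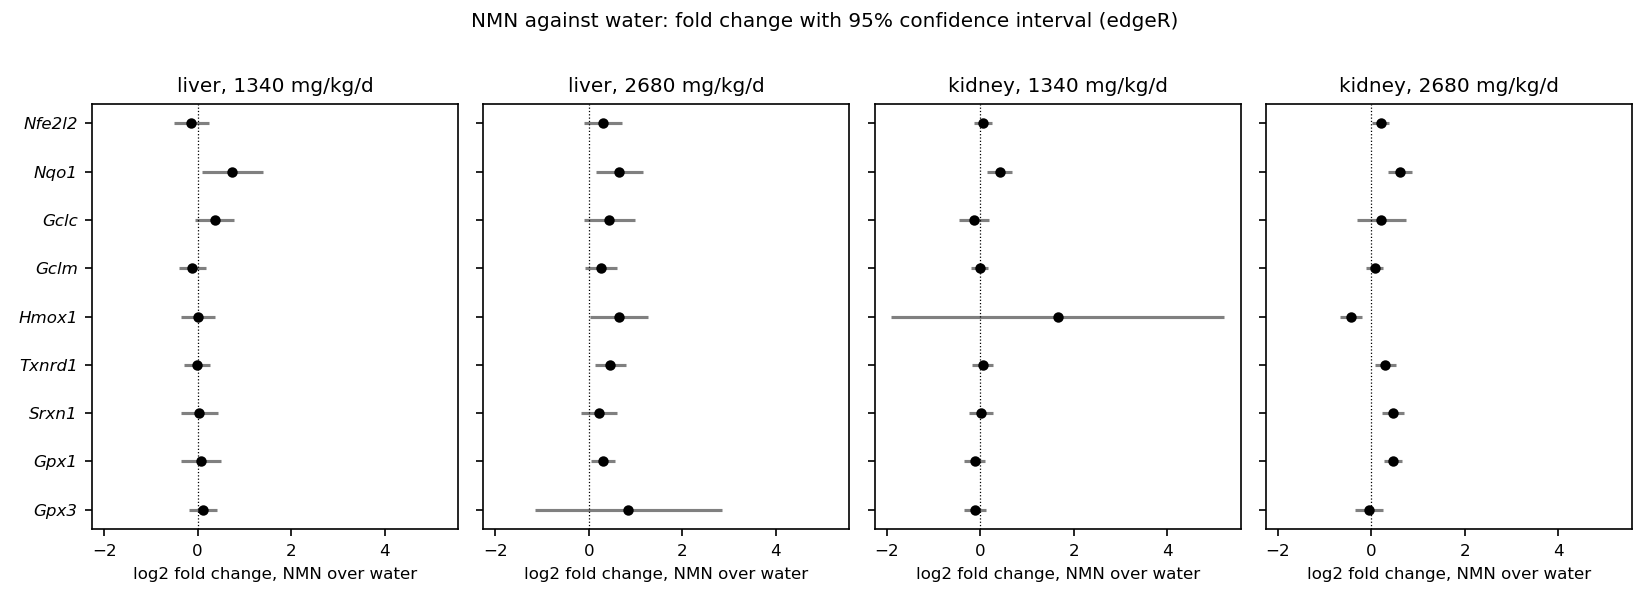
Log2 fold change of NMN over water for the 9 members tested, with the 95% confidence interval from edgeR, in the liver and kidney at 1340 and 2680 mg/kg/d. Nqo1 lies above 0 in all 4 comparisons, and the widest interval is that of Hmox1 in the kidney at 1340 mg/kg/d (-1.90 to 5.22).

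Nqo1 encodes a quinone reductase and is the member most often used as a readout of NRF2. Its level in the liver at 1340 mg/kg/d was 2.61, 4.40, 6.51 and 4.46 CPM in the water mice and 9.69, 9.15, 4.75 and 6.64 CPM in the NMN mice. The NMN mice lay higher on the whole, but the groups overlapped. The log2 fold change was 0.75 (standard error 0.30, edgeR adjusted p = 0.670), and 0.80 (adjusted p = 0.616) without NMN replicate 4. At 2680 mg/kg/d the liver gave 7.83, 7.15 and 6.28 CPM in the water mice and 8.63, 11.2 and 13.7 CPM in the NMN mice. All 3 NMN libraries exceeded all 3 water libraries. NMN exceeded water by 0.65 on the log2 scale (standard error 0.23, edgeR adjusted p = 0.114), and 0.80 (adjusted p = 0.0607) without NMN replicate 1.

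In the kidney, where Nqo1 was several times more abundant, the 1340 mg/kg/d schedule gave 56.0, 60.7, 56.2 and 78.7 CPM with water and 98.2, 88.9, 72.8 and 76.6 CPM with NMN. The highest water library lay above the 2 lowest NMN libraries. NMN over water came to 0.42 on the log2 scale (standard error 0.12, edgeR adjusted p = 0.254), and passed without a filter (0.43, adjusted p = 0.0138). At 2680 mg/kg/d Nqo1 stood at 69.7, 62.8 and 71.7 CPM with water and at 120.4, 85.4 and 106.5 CPM with NMN, so that the groups did not overlap. The log2 fold change of 0.61 (95% interval 0.36 to 0.87) missed the threshold (edgeR adjusted p = 0.0544). DESeq2 placed it past the threshold with an adjusted p of 0.000559. Between 0 and 2 members were called by edgeR in this comparison when 1 library was left out, namely Nqo1 and Gpx1 without NMN replicate 1 and Nqo1 and Srxn1 without NMN replicate 2. Over all genes, between 3 and 191 were called in these fits.

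Txnrd1 encodes thioredoxin reductase and Srxn1 the sulfiredoxin that repairs overoxidized peroxiredoxins. Txnrd1 in the liver at 2680 mg/kg/d was at 93.2, 91.3 and 110.1 CPM with water and at 131.3, 120.8 and 153.2 CPM with NMN. These groups did not overlap, and the log2 fold change was 0.46 (standard error 0.15, edgeR adjusted p = 0.0884). Txnrd1 passed there with all 14 liver libraries in one fit (0.47, edgeR adjusted p = 0.0468). In the kidney of that schedule the values were 131.0, 106.4 and 121.2 CPM with water and 165.2, 132.8 and 143.6 CPM with NMN, again without overlap (log2 fold change 0.30, edgeR adjusted p = 0.286). This kidney difference passed without a filter (0.32, edgeR adjusted p = 0.0247). At 1340 mg/kg/d Txnrd1 had log2 fold changes of -0.01 in the liver and 0.05 in the kidney, with overlapping groups. Srxn1 in the kidney at 2680 mg/kg/d was at 63.4, 63.5 and 54.8 CPM with water and at 87.9, 69.6 and 91.7 CPM with NMN. All NMN libraries lay above all water libraries, with a log2 fold change of 0.46 (standard error 0.11, edgeR adjusted p = 0.112, and 0.0248 in DESeq2). In the other 3 comparisons its log2 fold change was between 0.03 and 0.21, and the groups overlapped.

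Gpx1 encodes the glutathione peroxidase of the cytosol, a selenoprotein that reduces hydrogen peroxide. In the kidney at 2680 mg/kg/d it was at 1340, 1290 and 1445 CPM with water and at 1863, 1830 and 1907 CPM with NMN. The groups were well separated, with a log2 fold change of 0.46 (standard error 0.09, edgeR adjusted p = 0.0544, and 5.80e-06 in DESeq2). In the liver of that schedule the water mice gave 1620, 1829 and 1637 CPM and the NMN mice 2066, 2165 and 2038 CPM, without overlap (log2 fold change 0.30, edgeR adjusted p = 0.152). At 1340 mg/kg/d the log2 fold change was 0.07 (standard error 0.20) in the liver and -0.11 (standard error 0.11) in the kidney. The groups overlapped in both.

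Gclc and Gclm encode the catalytic and the modifier subunit of glutamate-cysteine ligase, the enzyme that sets the rate of glutathione synthesis. Gclc in the liver at 2680 mg/kg/d was at 408.4, 226.5 and 375.7 CPM with water and at 548.7, 334.9 and 488.5 CPM with NMN. The groups overlapped through the lowest NMN library, and the log2 fold change was 0.44 (standard error 0.24, edgeR adjusted p = 0.295). With 1 library left out it was between 0.22 and 0.62. The log2 fold change of Gclc was 0.37 in the liver at 1340 mg/kg/d, -0.13 in the kidney at 1340 mg/kg/d and 0.22 in the kidney at 2680 mg/kg/d, each with overlap. Gclm had log2 fold changes of -0.11 (1340 mg/kg/d) and 0.26 (2680 mg/kg/d) for liver, with -0.01 and 0.07 for kidney, and its groups overlapped in all 4 comparisons. On 4.71% of the Gclm exon length another annotated gene overlaps it, and the counting did not use strand. Nfe2l2 itself was at 104.9, 101.0 and 114.9 CPM with water and at 129.4, 121.3 and 116.9 CPM with NMN in the kidney at 2680 mg/kg/d. The NMN libraries were all higher, by a small margin (log2 fold change 0.20, standard error 0.08, edgeR adjusted p = 0.389). Its log2 fold change was -0.13 and 0.31 in the liver at 1340 and 2680 mg/kg/d and 0.06 in the kidney at 1340 mg/kg/d, with overlapping groups. When 1 library was left out, these ran from -0.24 to -0.014, from 0.12 to 0.42 and from 0.018 to 0.11.

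Hmox1 encodes heme oxygenase 1, which degrades heme and is made in cells that take up heme. In the kidney at 1340 mg/kg/d its level was 105.1, 51.7, 34.6 and 36.0 CPM with water and 23.2, 19.8, 664.4 and 10.6 CPM with NMN. NMN replicate 3 was far above every other library, and the remaining 3 NMN libraries were below all 4 water libraries. The log2 fold change of 1.66 (standard error 1.47) therefore rested on this library, and was -1.67 (standard error 0.55, edgeR adjusted p = 0.346) without it. Genes at 4 CPM or more in one library of this organ and schedule, and at least 4 times their level in each of the other 7, numbered 3 in NMN replicate 3, a limit set after the values were seen. They were Hmox1, Chac1 and Trib3. Water replicate 1 had 2 such genes (Npas2 and Ppard), NMN replicate 1 had 2 (Cxcl1 and Gadd45g) and the other 5 libraries had 0. Chac1, which encodes an enzyme that cleaves glutathione, was at 28.7 CPM there and at 1.21, 6.44 and 2.04 CPM in the other NMN mice. The 5 blood markers, led by the globin Hbb-bs, also summed highest in NMN replicate 3, to 297.0 CPM, against 162.9, 98.2 and 13.5 CPM in the other NMN libraries and 157.4, 35.2, 24.5 and 115.6 CPM with water. All 5 had at least 1 count in each of these libraries, and their part in the result was not tested.

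At 2680 mg/kg/d the kidney gave Hmox1 at 25.0, 25.5 and 26.1 CPM with water and at 16.1, 20.9 and 19.5 CPM with NMN. Every NMN library lay below every water library, and Hmox1 was the one member with non-overlapping groups in this direction, which 8.69% of all genes tested had (log2 fold change -0.44, standard error 0.11, edgeR adjusted p = 0.128). Hmox1 was called lower there without a filter (-0.41, edgeR adjusted p = 0.0222). The blood markers summed to 153.7, 8.13 and 119.1 CPM with water and to 15.6, 93.4 and 22.3 CPM with NMN, and all 5 had a fold change below 0 on the log2 scale without passing the test. Their part in the Hmox1 values was not tested. The liver at 2680 mg/kg/d gave 9.63, 13.4 and 9.89 CPM with water and 25.2, 11.96 and 14.1 CPM with NMN, with overlap. The difference was 0.64 on the log2 scale (standard error 0.28, edgeR adjusted p = 0.192) and was 0.24 (standard error 0.22, adjusted p = 0.588) without NMN replicate 1. The 9 macrophage markers, led by genes of liver macrophages, summed to 245.5 ± 84.4 CPM with water and 197.6 ± 19.9 CPM with NMN (SD, n = 3). The 5 blood markers, all with a count, summed to 114.3, 133.5 and 114.9 CPM with water and to 42.6, 43.6 and 83.8 CPM with NMN, without overlap. Alas2, the heme synthesis enzyme of red cell precursors, was the most abundant in 5 of the 6 libraries and fell from 99.5 ± 11.2 to 30.2 ± 7.22 CPM (SD, n = 3), by 1.72 on the log2 scale (edgeR adjusted p = 0.00121), while the 4 globins had log2 fold changes of -0.0086 to 0.60 and were not called. The part of these markers in the Hmox1 values was not tested. At 1340 mg/kg/d the liver level was between 10.1 and 12.5 CPM in all 8 libraries.

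Counted over the list, the liver at 1340 mg/kg/d had 6 of 9 members with a log2 fold change above 0 and a median of 0.04, beside a median of 0.00 over the 12449 genes tested, of which 0.0161% were called. With 1 library left out, 4 to 7 members were above 0 and the median was -0.0036 (without water replicate 4) to 0.11 (without NMN replicate 3), so neither direction can be named. The liver at 2680 mg/kg/d had all 9 members tested above 0, with a median of 0.44 beside 0.00 over 12477 genes, of which 7.08% were called. Without NMN replicate 1, 8 of 9 were above 0 and the median was 0.28. Non-overlapping groups with higher NMN values were seen for 3 of the 9, Nqo1, Txnrd1 and Gpx1, and for 13.8% of all genes tested. In the kidney at 1340 mg/kg/d 5 of 9 were above 0, with a median of 0.03 beside 0.00 over 14972 genes, of which 0.12% were called. There the fits that left out 1 library gave 3 to 7 members above 0 and a median of -0.014 (without NMN replicate 1) to 0.072 (without water replicate 1), so again neither direction can be named. In the kidney at 2680 mg/kg/d 7 of 9 were above 0, with a median of 0.22 beside 0.00 over 15245 genes, of which 0.4% were called. There 5 of the 9, Nqo1, Gpx1, Srxn1, Txnrd1 and Nfe2l2, had non-overlapping groups with higher NMN values, and 8.47% of all genes tested did. The 8 kidney tubule markers summed to 31667 ± 1114 CPM with water and 24999 ± 3136 CPM with NMN (SD, n = 3) in these libraries, with 6 of 8 lower, 4 of them at an unadjusted p under 0.05 and none called. Reads in no counted feature were 6.85% to 7.36% with water and 6.45% to 6.62% with NMN there. The part of either in the member values was not tested.

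Whether the response to NMN depended on the schedule was asked with an interaction term, fitted to all 14 libraries from an organ. In the liver 0.0746% and in the kidney 0.00625% of the genes tested were called, and no member was. An unadjusted p under 0.05 with a greater fold change at 2680 mg/kg/d was found for 4.03% of genes in the liver and 2.17% in the kidney. The members among them were Gpx1 in the kidney, whose log2 fold change with NMN was 0.57 greater at 2680 than at 1340 mg/kg/d (standard error 0.15, edgeR adjusted p = 0.606), Txnrd1 in the liver (0.48 greater, adjusted p = 0.442) and Srxn1 in the kidney (0.43 greater, adjusted p = 0.999). Without a filter 106 of 29046 genes passed in the kidney, with Gpx1 (0.59, edgeR adjusted p = 0.0225) and Hmox1 (-2.07, adjusted p = 2.48e-32) among them. In filtered fits that left out 1 library, the Hmox1 difference ran from -2.56 to 1.23. For Nqo1 the difference between schedules was -0.08 in the liver (95% interval -0.93 to 0.77) and 0.19 in the kidney (95% interval -0.21 to 0.59), so neither direction can be named. Dependence on the organ was asked in the same way within each schedule. No gene was called at 1340 mg/kg/d by edgeR (5.79% had an unadjusted p under 0.05, and DESeq2 called 27), and 2.65% were at 2680 mg/kg/d, with no member among them. The Hmox1 fold change at 2680 mg/kg/d was 1.06 greater on the log2 scale in the liver than in the kidney (standard error 0.33, edgeR adjusted p = 0.0943, and 0.0447 in DESeq2). It was 0.68 without liver NMN replicate 1, and passed without liver NMN replicate 2 (1.22, adjusted p = 0.0231) and without a filter (0.00469). For Nqo1 the difference between organs at 2680 mg/kg/d was 0.02 (95% interval -0.49 to 0.53). The labels do not say whether liver and kidney libraries of one number came from the same mouse.

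The members were also compared between the organs in the water mice. Levels of the organs are compared after scaling the water libraries of both organs together, and the median log2 difference of liver to kidney over all genes was then -0.10 and -0.17 at 1340 and 2680 mg/kg/d. Of all genes tested, 66.9% were called between liver and kidney at 1340 mg/kg/d and 70.5% at 2680 mg/kg/d, and 7 and 5 of 9 members were. Gpx3, which encodes the secreted plasma glutathione peroxidase made mainly in the kidney tubule, was at 51.7 ± 5.32 CPM in the liver and 19559 ± 972 CPM in the kidney with water at 1340 mg/kg/d (SD, n = 4). The log2 difference of liver to kidney was -8.56 there and -10.65 at 2680 mg/kg/d. Nqo1 was lower in the liver, at 6.21 ± 2.16 CPM against 45.0 ± 7.84 CPM (SD, n = 4), with log2 differences of -2.85 and -2.41 (edgeR adjusted p = 1.26e-07 and 4.28e-08). Gpx1 was higher in the liver, at 2843 ± 635 CPM against 1233 ± 129 CPM (SD, n = 4), with log2 differences of 1.21 and 1.17 (edgeR adjusted p = 2.53e-05 and 3.30e-06). Txnrd1 was higher in the liver too (0.49 and 0.57, edgeR adjusted p = 0.00378 and 0.00168), as was Gclc (0.51 and 0.83, edgeR adjusted p = 0.0430 and 0.00526). Gclm passed the test at 1340 mg/kg/d only (0.32, edgeR adjusted p = 0.0415), with 0.19 and adjusted p = 0.158 at 2680 mg/kg/d. The calls of Gclc and Gclm at 1340 mg/kg/d were lost under DESeq2, under upper quartile scaling, without a filter and with at least 10 counts in every library, and each was lost in 6 of 8 fits that left out 1 library. Both were kept without kidney replicate 1, Gclc also without liver replicate 4 and Gclm also without liver replicate 1. Hmox1 was lower in the liver at 1340 mg/kg/d (-1.43, edgeR adjusted p = 0.00220) and had a difference of -0.36 at 2680 mg/kg/d (edgeR adjusted p = 0.0649), which passed under upper quartile scaling (-0.52, adjusted p = 0.0141), with at least 10 counts in every library (-0.46, adjusted p = 0.0233) and without liver replicate 2 (adjusted p = 0.0130). With 1 library left out, the Hmox1 difference at 1340 mg/kg/d was between -1.61 and -0.94 (highest edgeR adjusted p = 0.0130). Nfe2l2 (0.13 and 0.23, the first of them below 0 under upper quartile scaling) and Srxn1 (-0.30 and -0.14) did not pass the test in either schedule. Srxn1 at 1340 mg/kg/d did pass under upper quartile scaling (-0.45, edgeR adjusted p = 0.0253) and with at least 10 counts in every library (-0.43, adjusted p = 0.0303). Without liver replicate 1 of the schedule, Srxn1 at 1340 mg/kg/d (-0.47, edgeR adjusted p = 0.00574) and Nfe2l2 at 2680 mg/kg/d (0.45, adjusted p = 0.00483) passed.

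**Figure D3:**
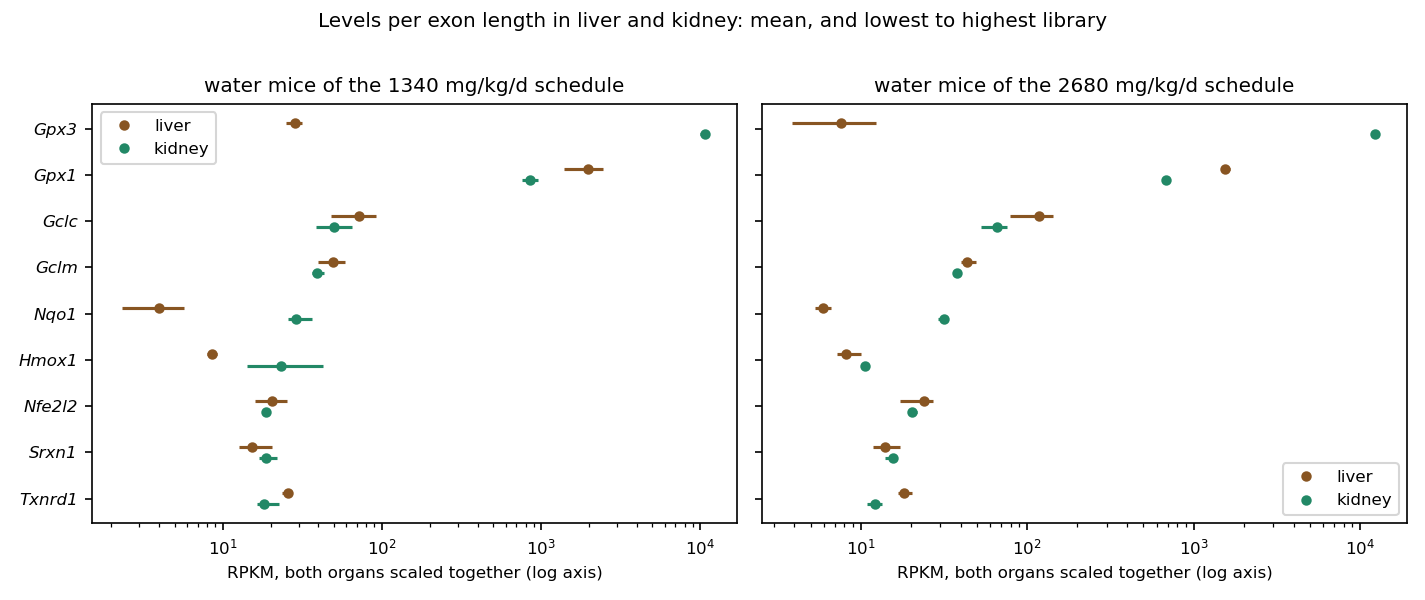
CPM divided by the exon length in kilobases (RPKM, log axis) of 9 members in the water mice of each schedule, with both organs scaled together. Points are means and lines run from the lowest to the highest library, with liver in brown and kidney in green. Gpx3 and Nqo1 lie to the right in the kidney and Gpx1 in the liver.

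Per exon length, and scaled within an organ and schedule, the order of the members can be given. Among kidney samples from water mice at 1340 mg/kg/d, Gpx3 led with 15066 ± 684 RPKM (SD, n = 4), followed by Gpx1 (1195 ± 122 RPKM), Gclc (70.2 ± 17.6 RPKM), Gclm (55.0 ± 4.01 RPKM) and Nqo1 (40.5 ± 6.94 RPKM). Gclc and Gclm overlapped, as did each neighbouring pair from Nqo1 through Hmox1, Nfe2l2 and Srxn1 to Txnrd1 (25.6 ± 4.19 RPKM). In the liver with water at 1340 mg/kg/d Gpx1 led with 1426 ± 314 RPKM (SD, n = 4), followed by Gclc (51.7 ± 13.4 RPKM), Gclm (35.5 ± 5.84 RPKM) and Gpx3 (20.6 ± 2.21 RPKM). Gclc and Gclm overlapped, and so did Gpx3, Txnrd1, Nfe2l2 and Srxn1 in turn, while Hmox1 (6.24 ± 0.485 RPKM) and Nqo1 (2.89 ± 1.03 RPKM) followed without overlap. Slc7a11 was last in every group.

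Slc7a11, the light chain of the cystine transporter that feeds glutathione synthesis in many cultured cells, was nearly absent. It had 73 counts over the 28 libraries, no more than 11 in any of them and none in 10, and it did not pass the filter on low counts in any comparison. In the liver at 2680 mg/kg/d both groups had 0 counts, which allows up to 0.0510 CPM in the water mice and 0.0524 CPM in the NMN mice (3 counts over the group). In the kidney at 2680 mg/kg/d the NMN mice had 0.462, 0.0438 and 0.239 CPM and the water mice 0.158, 0 and 0.120 CPM. At these counts no difference was detectable, and floors cover counting error only.

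The liver level of Gpx3 moved with markers of kidney tubules. Across the 8 livers sampled at 1340 mg/kg/d, the 8 kidney tubule markers (Kap, Slc34a1, Umod, Lrp2, Slc22a6, Slc12a1, Slc5a2 and Aqp2) summed to 41.8 to 59.4 CPM, which is 0.116% to 0.164% of their sum in the kidney, and at least 7 of the 8 had a count. Kap, the most abundant, made up 23.8 to 36.7 CPM. Gpx3 in these libraries was at 32.6 to 45.3 CPM, or 0.119% to 0.166% of its kidney level. The percentages of Gpx3 and of the markers use CPM scaled within each organ, and they would differ with both organs scaled together. On that shared scale the water mice at 1340 mg/kg/d had Gpx3 at 51.7 CPM in the liver and 19559 CPM in the kidney. In the liver at 2680 mg/kg/d Gpx3 was at 9.48, 17.1 and 5.33 CPM with water and at 40.2, 9.24 and 8.04 CPM with NMN. NMN replicate 1 stood far above the other 2 NMN libraries, which lay within the range of the water mice. In that library the kidney markers summed to 33.7 CPM (0.106% of kidney) and Gpx3 to 0.130% of its kidney level, while in the other 5 libraries the markers were between 0.00407% and 0.0310% and Gpx3 between 0.0172% and 0.0551%. In those 5, between 3 and 7 of the 8 markers had a count. The log2 fold change of Gpx3 was 0.85 (standard error 0.80, edgeR adjusted p = 0.577) and turned to -0.31 (adjusted p = 0.740) without NMN replicate 1. Albumin in the kidney also differed by schedule, at 88.6 and 102.4 CPM in the water and NMN mice at 1340 mg/kg/d and at 10.5 and 13.6 CPM at 2680 mg/kg/d. Of the other hepatocyte markers, Apoa1, Apoc3, Fgb, Serpina1c and Cps1 were also lower in the kidney at 2680 mg/kg/d. Ttr and Cyp2e1 did not share this split. With water at 1340 and 2680 mg/kg/d, Ttr was at 98.7 and 92.6 CPM and Cyp2e1 at 1623 and 2143 CPM. The part of kidney RNA in the liver values of Gpx3 was not tested. In the kidney Gpx3 had log2 fold changes with NMN of -0.11 and -0.04 at 1340 and 2680 mg/kg/d, within the spread between mice.

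**Figure D4:**
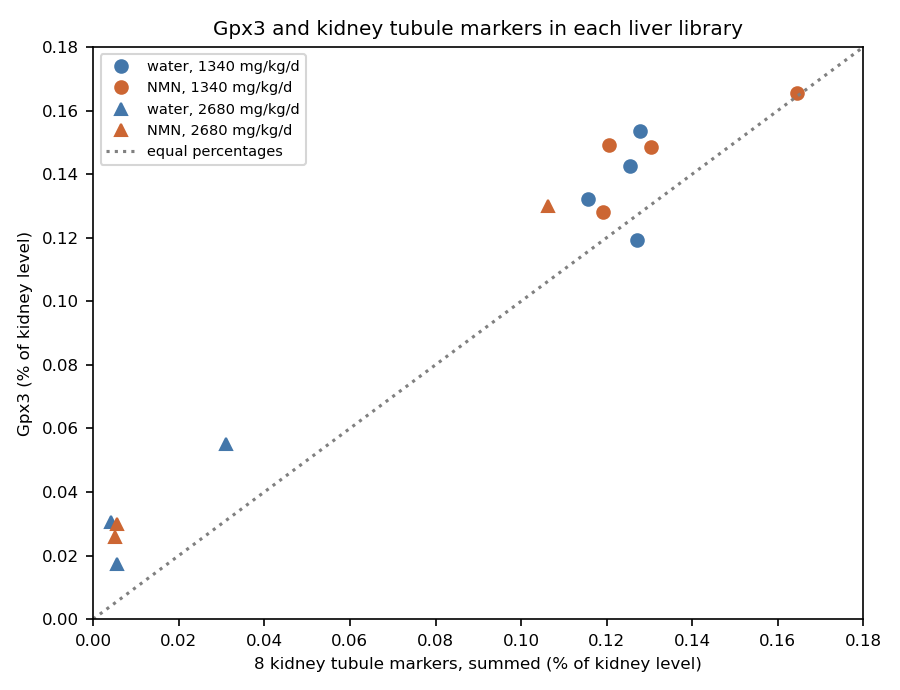
Gpx3 in each of the 14 liver libraries as a percentage of its mean level in the kidney of the water mice of that schedule (y axis), against the sum of 8 kidney tubule markers on the same scale (x axis). CPM were scaled within each organ and not over both organs together. Circles are the 1340 mg/kg/d and triangles the 2680 mg/kg/d schedule, and 1 NMN triangle (0.106% and 0.130%) lies with the circles.

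The other genes of the pathway were read from 4 lists that share no gene with the members: 12 regulators of NRF2, 30 other targets, 26 genes of peroxide and thiol metabolism and 17 selenoproteins with their synthesis genes. With NMN at 2680 mg/kg/d in the liver, 2 of 12 regulators rose, 8 of 29 other targets tested rose, and 3 of 24 genes of peroxide and thiol metabolism fell, beside 3.05% of all genes called higher and 4.03% called lower. The lists were chosen with earlier results of these data known, so these counts do not test whether the lists responded more than other genes. Among the targets Gsta2, a glutathione transferase, went from 29.2, 28.8 and 39.9 CPM with water to 119.6, 115.8 and 150.9 CPM with NMN. The groups lay far apart, and the log2 fold change was 1.98 (standard error 0.18, edgeR adjusted p = 0.000505). Its paralog Gsta1 was called as well (2.43), at no more than 1.97 CPM, and reads may be split between such copies. Ugdh, which makes the UDP-glucuronic acid used in conjugation, rose from 127.1, 89.8 and 146.8 CPM to 290.3, 301.6 and 441.4 CPM (log2 fold change 1.51, edgeR adjusted p = 0.00404). The epoxide hydrolase Ephx1 rose by 1.29, the export pumps Abcc3 and Abcc2 by 1.14 and 0.82, the transferase Gstm1 by 0.91 and the nucleotidase Entpd5 by 0.90 on the log2 scale. The other 21 targets tested did not pass, and 7 of the 29 had a log2 fold change below 0.

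Of the regulators, Maff, a small MAF protein, rose in the liver at 2680 mg/kg/d from 3.04, 3.39 and 2.84 CPM to 5.72, 10.6 and 13.0 CPM (log2 fold change 1.66, standard error 0.32, edgeR adjusted p = 0.0138). Nfe2l1, the relative of NRF2 that controls proteasome genes, rose from 80.7 ± 10.6 CPM to 128.1 ± 22.9 CPM (SD, n = 3), by 0.67 on the log2 scale (edgeR adjusted p = 0.0416). The Nfe2l1 call was lost under upper quartile scaling (adjusted p = 0.0519) and in 5 of 6 fits that left out 1 library, and was kept without NMN replicate 1 (adjusted p = 0.0147, highest 0.169). Bach1 had a log2 fold change of 0.77 with an edgeR adjusted p of 0.0803, and passed in DESeq2 (adjusted p = 0.0300), without a filter (adjusted p = 0.00183) and in edgeR without NMN replicate 2 (0.99, adjusted p = 0.0115). Keap1 had 0.10 (edgeR adjusted p = 0.694) in the liver at 2680 mg/kg/d and -0.07, -0.16 and 0.07 in the liver at 1340 and the kidney at 1340 and 2680 mg/kg/d, and 10.9% of its exon length is shared with a gene on the other strand. Glrx, which encodes glutaredoxin, fell from 30.5, 29.7 and 27.7 CPM to 8.18, 14.5 and 16.2 CPM (log2 fold change -1.17, edgeR adjusted p = 0.0169). Msra, a methionine sulfoxide reductase, and Prdx4, the peroxiredoxin of the secretory pathway, fell by 0.70 and 0.64 on the log2 scale (edgeR adjusted p = 0.0250 and 0.0280). The calls of Maff, Msra and Prdx4 were each lost without water replicate 1, water replicate 2 or NMN replicate 3 (highest adjusted p = 0.0663, 0.118 and 0.125), and that of Glrx without water replicate 1 or 2 (highest 0.0724). No selenoprotein gene was called, and Selenow (-0.47), Gpx4 (0.35) and Sephs2 (-0.34) had the smallest p. In the same livers all 8 hepatocyte markers had a log2 fold change below 0, with a median of -0.41, and Ttr (-0.97) and Serpina1c (-0.58) were called. They summed to 167276 ± 6641 CPM with water and 128014 ± 6628 CPM with NMN (SD, n = 3), and their part in the other changes was not tested. Reads in no counted feature were 3.27% to 3.62% with water and 3.90% to 5.06% with NMN in these livers, without overlap, and the blood markers were lower in sum as given with Hmox1. The part of either was not tested. When each library was left out in turn, between 2 and 8 of the targets and between 0 and 2 of the regulators were called higher, and between 0 and 4 genes of peroxide and thiol metabolism were called lower. The lowest count of targets came without water replicate 1, and no regulator was called without water replicate 1, water replicate 2 or NMN replicate 3. Without NMN replicate 1 the counts were 7 targets and 2 regulators. Gsta2 and Ugdh passed in each of these fits.

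**Figure D5:**
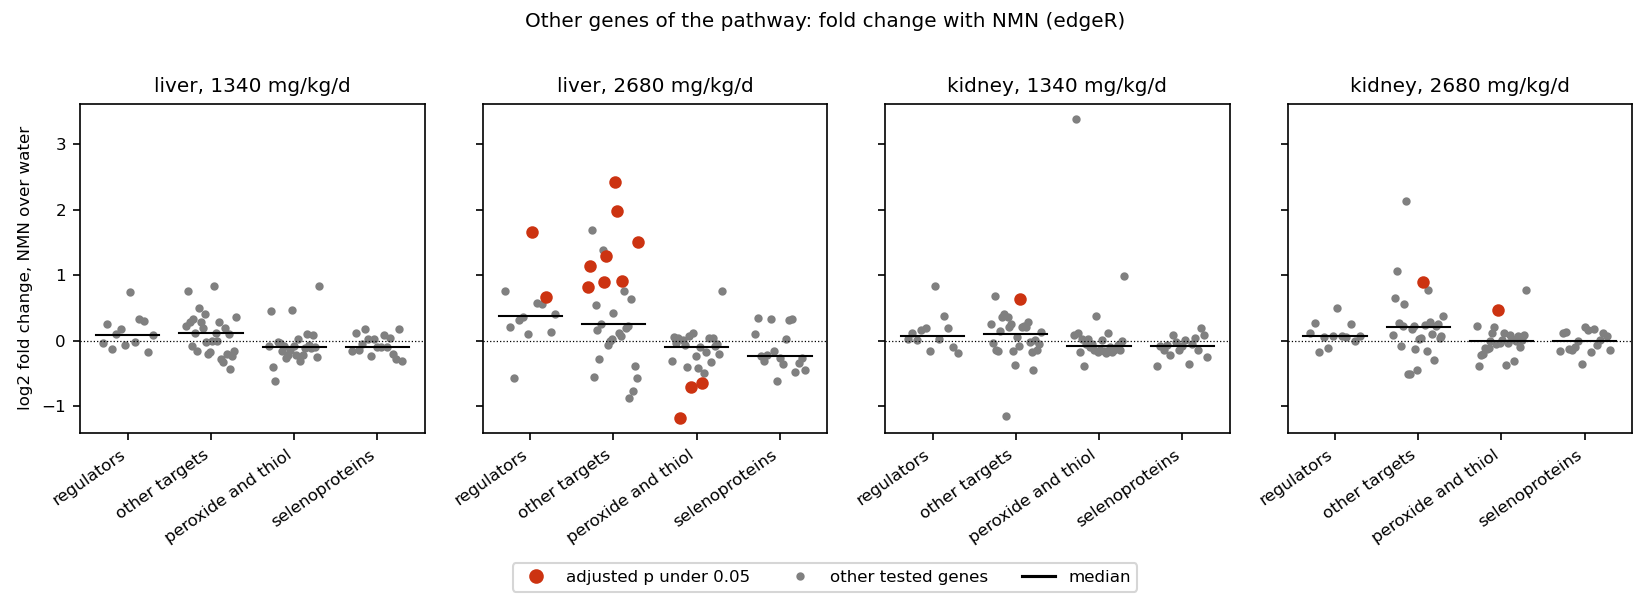
Log2 fold change of NMN over water (y axis) for each tested gene of 4 pathway lists (x axis) in the liver and kidney at 1340 and 2680 mg/kg/d, with genes of an adjusted p under 0.05 in red, other genes in grey and a line at the median. The red points are 13 in the liver at 2680 mg/kg/d, and 0, 1 and 2 in the liver at 1340 mg/kg/d and the kidney at 1340 and 2680 mg/kg/d.

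In the other comparisons few genes of the lists passed. In the kidney Gsta2 rose from 177.4, 175.6, 183.1 and 212.5 CPM to 281.7, 299.1, 351.7 and 230.2 CPM at 1340 mg/kg/d (log2 fold change 0.64, edgeR adjusted p = 0.0393) and from 312.0, 248.9 and 274.5 CPM to 478.4, 471.4 and 608.4 CPM at 2680 mg/kg/d (0.90, adjusted p = 0.0122). It was the 1 called of 28 targets tested in each, beside 0.0668% and 0.118% of all genes called higher. The 8 kidney tubule markers summed to 41297, 31948, 32470 and 38851 CPM with water at 1340 mg/kg/d. With NMN they summed to 32074, 25216, 29997 and 30363 CPM, with overlap, and their part in the Gsta2 values was not tested. Oplah, which encodes the 5-oxoprolinase that recovers glutamate from glutathione breakdown, rose in the kidney at 2680 mg/kg/d by 0.46 (edgeR adjusted p = 0.0452). The Gsta2 call at 1340 mg/kg/d was lost in 6 of 8 fits that left out 1 library (all but those without NMN replicate 3 or 4), under upper quartile scaling and without the robust option. The call at 2680 mg/kg/d was lost without water replicate 2 (adjusted p = 0.0509) or 3 (adjusted p = 0.142), and that of Oplah in 5 of 6 such fits, without the robust option (adjusted p = 0.0672) and with all 14 kidney libraries (0.202). Genes that did not pass there included Gstm1 (0.78, adjusted p = 0.0764) and Cbr3, a carbonyl reductase (2.14, adjusted p = 0.0923). Both passed in DESeq2 (adjusted p = 2.78e-05 and 0.000176), without a filter, and in edgeR with all 14 kidney libraries (0.00715 and 0.0154). Gstm1 also passed without NMN replicate 1 (adjusted p = 0.00573) and Cbr3 without NMN replicate 2 (adjusted p = 0.00149). Others short of the threshold in the kidney at 1340 mg/kg/d were Abcc4 (0.68), Ces1g (-1.15), Oplah (0.38), Txnip (0.99) and Selenop (-0.35). Of these, Abcc4 and Ces1g passed in DESeq2 (adjusted p = 0.0101 and 0.00887), and these 2, Selenop and Oplah (adjusted p = 0.0176) without a filter. Oplah also passed without NMN replicate 3 (0.51, edgeR adjusted p = 0.0265), and Abcc4 (0.80, adjusted p = 0.0390) and Txnip (1.19, adjusted p = 0.0462) without NMN replicate 4. Liver at 1340 mg/kg/d had no list gene called, where 0.0161% of all genes were. At an unadjusted p under 0.05, 8 of the 82 list genes tested were higher and 4 lower there, beside 3.52% and 3.34% of all genes. DESeq2 called Abcc3, and Abcc3 and Gsta2 passed in edgeR without a filter (adjusted p = 0.00223 and 0.0243). Without NMN replicate 4, the library with the most reads in no counted feature, edgeR called Abcc3 as well (0.83, adjusted p = 0.0391). Among the genes with the smallest p were Abcc3 (0.76, edgeR adjusted p = 0.0801), Oplah (0.47, adjusted p = 0.338) and Gsta2 (0.83, adjusted p = 0.342). The median log2 fold change of the 28 targets tested was 0.11 there, 0.10 in the kidney at 1340 mg/kg/d and 0.20 in the kidney at 2680 mg/kg/d, beside 0.00 over all genes in each. The liver median was 0.0059 without water replicate 4 and 0.011 without NMN replicate 1.

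Over the 8 group means, the log2 CPM pattern of Nqo1 was most like that of Spc25 (Pearson's r = 0.9987), Adgrf5 (r = 0.9979) and Egfl7 (r = 0.9971) among 11462 genes. Spc25 encodes a kinetochore protein, and Adgrf5 and Egfl7 are expressed in endothelial cells. The likeness is dominated by the higher level in the kidney. Spc25 was at 2.53 CPM in the liver and 20.9 CPM in the kidney with water at 1340 mg/kg/d. These CPM and the correlations use values scaled within each organ, so the size of the organ difference is not on the scale shared by both organs. The group means share libraries and scaling with Nqo1, and no p is given.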

How the data were processed

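RNA was sequenced from liver and kidney in 28 libraries, each with 1 table of read counts per Ensembl gene. The authors deposited these counts without normalization, after alignment with STAR and counting with HTSeq in intersection-strict mode without strand. The genome build was given only as mm19, which names no mouse assembly. Rows that name no gene were kept out, and reads in no counted feature were 3.27% to 12.8% and ambiguous reads 1.76% to 5.10% of a library. Of the 54446 identifiers, 53229 matched the GENCODE M21 annotation exactly, 1180 without the version and 37 not at all.

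Counts were fitted in R 4.3.3 with edgeR 4.0.16 (filterByExpr, TMM, robust quasi-likelihood test), with Benjamini-Hochberg adjustment over all genes tested, in 10 comparisons. Each NMN comparison used only the libraries of that organ and schedule. The method was tested on simulated data, with log2 changes of 1 in 200 genes per comparison. In the NMN comparisons edgeR recovered 37.5% (liver at 2680 mg/kg/d) to 77% (kidney at 2680 mg/kg/d) of them. It recovered 2.5% and 49.5% in the schedule interactions (liver, kidney) and 31.5% and 18% in the organ interactions (1340, 2680 mg/kg/d). False calls were 0% to 10% of edgeR calls and 9.9% to 30.8% of DESeq2 calls over the 10 comparisons. Alternatives were DESeq2 1.42.0, other scalings and filters, a replicate block, thinned counts, stricter thresholds and leaving out each library. Standard errors were taken as the size of the estimate over the root of its F statistic. RPKM divide CPM by the union exon length. Named genes were the 10 members, Keap1, the 3 tested genes with the smallest p in each of 4 lists per NMN comparison, and the 3 genes most like Nqo1. Called list genes, markers and the genes far above all others in 1 kidney library are named as well, chosen after their values were seen. Members and lists were chosen with earlier results of these data known, so their counts beside the shares of all genes are descriptive. Replicates are separate libraries of a group, and the lowest chi-square per degree of freedom between 2 replicates of a group was 7.23 over 36 pairs, so no replicate was counted as a copy of another in its group. The 95% intervals are from edgeR and reflect the spread between libraries. With reads that carry no molecular identifiers, floors cover counting error only.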

Additional observations from a re-analysis of the deposited data

Results flagged for a closer look

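In 40 checks of single groups of 4 libraries, 4 values stood apart from the others of their group by Dixon's 95% criterion, which chance meets in about 1 in 20 groups. Hmox1 in kidney NMN replicate 3 at 1340 mg/kg/d was at 664.4 CPM, and the next library of that group at 23.2 CPM. Txnrd1 stood highest in liver NMN replicate 4 at 1340 mg/kg/d (152.0 CPM against 125.7 CPM in the next), the library with 12.8% of reads in no counted feature. Txnrd1 was also highest in kidney water replicate 1 (225.3 CPM against 170.7 CPM) and in kidney NMN replicate 1 (211.2 CPM against 182.1 CPM) at 1340 mg/kg/d. The causes were not tested.

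The response to NMN at 2680 mg/kg/d differed between liver and kidney for 2 named genes outside the members. The log2 fold change was greater in the liver by 1.11 for Ugdh (edgeR interaction test, adjusted p = 0.0420) and by 1.07 for Gsta2 (adjusted p = 0.0263).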

How the results depend on the processing

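With these group sizes an exact permutation test can give a p no lower than 0.0286 (4 against 4) or 0.1 (3 against 3). Replicate numbers were not taken to pair the libraries, since no label ties them and in no comparison was every same-numbered correlation over 0.1: the mean correlation of same-numbered deviations was 0.039, 0.117, 0.035 and 0.019 in the liver at 1340 and 2680 and the kidney at 1340 and 2680 mg/kg/d, and each library correlated best with its own number in 1 of 4, 3 of 3, 2 of 4 and 1 of 3 pairs. Between liver and kidney of the water mice the mean was 0.132 (0.060 to 0.220, 3 of 4 best with their own number) at 1340 and 0.1 (0.063 to 0.158, 3 of 3) at 2680 mg/kg/d, a hint from the data and not from the design. With the replicate block, called genes numbered 16 in the liver and 75 in the kidney at 1340 mg/kg/d, 92 in the kidney at 2680 mg/kg/d, and 2 in the schedule interaction in the kidney and 2 in the organ interaction at 1340 mg/kg/d. Members called with the block were 2 in the liver (Gclc and Txnrd1) and 1 in the kidney (Nqo1) at 2680 mg/kg/d. Over all genes, 92 of 15245 were called with the block in that kidney. In that liver 883 of 12477 were called without the block. The count with the block is not given here, so the liver members have no share from the same fit beside them. The block also moved Srxn1 (edgeR adjusted p = 0.0297) and Gclm (0.0527) across the threshold between organs at 1340 mg/kg/d, Bach1 in the liver (0.0339) and Cbr3 in the kidney (0.00913) at 2680 mg/kg/d. Hmox1 turned with the block to -0.67 in the kidney at 1340 mg/kg/d and to 0.21 in the schedule interaction in the kidney.

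DESeq2 called 74, 1450, 159 and 236 genes in those 4 comparisons, 98 and 10 in the schedule interactions (liver, kidney), and 27 and 1234 in the organ interactions (1340, 2680 mg/kg/d), with 3 members in the kidney at 2680 mg/kg/d and 1 in the organ interaction at 2680 mg/kg/d. Without a filter the counts were 44, 1785, 269 and 514, then 71 and 106, then 9 and 1307. Members called without a filter were 1 in the kidney at 1340 mg/kg/d (Nqo1) and 5 at 2680 mg/kg/d (Nqo1, Hmox1, Txnrd1, Srxn1 and Gpx1). There were 2 in the schedule interaction in the kidney (Gpx1 and Hmox1) and 2 in the organ interaction at 2680 mg/kg/d. With an adjusted p under 0.01 and a fold over 2, the counts of genes called were 0, 135, 2 and 3. With all 14 libraries of the organ they were 6 in the liver at 1340 mg/kg/d and 35 in the kidney at 2680 mg/kg/d, with 1 member (Txnrd1) in the liver at 2680 mg/kg/d. The count over all genes for that member's fit is not given here. Without the robust option 5 genes were called in the kidney at 1340 mg/kg/d. The 1 gene of the schedule interaction in the kidney was lost (0 called) without the robust option, under upper quartile scaling, with at least 10 counts in every library and with thinned counts.

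Values near 0 changed sign: Hmox1 in liver, 1340 mg/kg/d, with thinned counts (-0.018), Srxn1 in the organ interaction at 1340 mg/kg/d with DESeq2 (-0.011), its size factors (-0.012) and thinned counts (-0.017), Nqo1 in the organ interaction at 2680 mg/kg/d under upper quartile scaling (-0.0034), and Nfe2l2 between organs at 1340 mg/kg/d under upper quartile scaling (-0.017). The causes were not tested.

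With each library left out in turn, the number of genes called ranged from 0 to 18 for liver, 1340 mg/kg/d, 211 to 1308 for liver, 2680 mg/kg/d, 5 to 67 for kidney, 1340 mg/kg/d, 3 to 191 for kidney, 2680 mg/kg/d, 7 to 25 for the schedule interaction in liver, 0 to 1 for the schedule interaction in kidney, 0 to 9 for the organ interaction, 1340 mg/kg/d, 118 to 1347 for the organ interaction, 2680 mg/kg/d. Members called ranged from 0 to 2 for kidney, 2680 mg/kg/d, 0 to 1 for the organ interaction, 2680 mg/kg/d. Log2 differences that changed sign in such fits ranged as follows. For liver, 1340 mg/kg/d they were -0.063 to 0.049 (Hmox1), -0.12 to 0.011 (Keap1), -0.050 to 0.22 (Srxn1), -0.094 to 0.024 (Txnrd1), -0.081 to 0.20 (Gpx1). For liver, 2680 mg/kg/d they were -0.31 to 1.37 (Gpx3). For kidney, 1340 mg/kg/d they were -0.23 to 0.022 (Gclc), -0.036 to 0.052 (Gclm), -0.036 to 0.13 (Srxn1), -0.0064 to 0.19 (Txnrd1), -1.67 to 2.14 (Hmox1). For kidney, 2680 mg/kg/d they were -0.076 to 0.20 (Keap1), -0.031 to 0.35 (Gclc), -0.16 to 0.087 (Gpx3). For the schedule interaction in liver they were -0.31 to 0.10 (Nqo1). For the schedule interaction in kidney they were -2.56 to 1.23 (Hmox1). For the organ interaction, 1340 mg/kg/d they were -0.097 to 0.18 (Srxn1), -2.13 to 1.68 (Hmox1). For the organ interaction, 2680 mg/kg/d they were -0.16 to 0.19 (Nqo1). For liver against kidney, 2680 mg/kg/d they were -0.28 to 0.011 (Srxn1).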
